A study of Mus musculus with 6 samples.

Results

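Of 21883 protein-coding genes, 10 genes of retinoic acid synthesis, breakdown, binding and reception were examined. They were chosen by name, and RefSeq on GRCm38.p6 (coordinates as in mm10) holds all 10. They were Aldh1a1, Aldh1a2, Aldh1a3, Cyp26b1, Crabp2, Rara, Rarb, Rarg, Rxra and Rxrb. A peak was assigned to a gene when it overlapped the gene body or 10 kb either side. The measurement was ATAC-seq, where a transposase inserts adapters into open chromatin. The cells were mouse mesenchyme of the atrioventricular cushions, which form heart valves and septa, grown as an immortalised line. The cells were kept for 48 h in 25 mM glucose (high glucose, HG, 3 libraries) or in 5.5 mM glucose (normal glucose, NG, 3 libraries). All libraries came from cells of 1 transgenic strain, H- 2Kb-tsA58, at passage 6. That transgene carries a temperature-sensitive viral large T antigen under the H-2Kb promoter, so both conditions share an immortalised background. Nothing in the labels says that the replicates came from separate cultures, and any spread between them may be technical.

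Retinoic acid is made from vitamin A. Retinol is first oxidised to retinal, which the ALDH1A enzymes turn into retinoic acid. Inside the cell CRABP2 carries the acid to the nucleus, CYP26 enzymes destroy it, and in the nucleus it binds the RAR receptors, which sit on DNA as pairs with RXR. Both too little and too much retinoic acid disturb heart, outflow tract and epicardium formation in the mouse embryo. In the embryonic heart Aldh1a2 is the main source of retinoic acid and is a classical gene of the epicardium.

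The lists of 5 libraries were compared. They held between 22149 and 40342 nuclear peaks, and the longest was NG 3. The list of NG 2 held 66 peaks, fell under a minimum of 1000 and had no peak in any of the 10 windows. Depth in reads is unknown, since the lists hold no counts. Peaks of the 5 lists that overlapped by at least 1 bp were merged into 49048 regions. A peak's rank is given as its percentile in its own list by the authors' −log10 p, where higher is stronger. Since the lists differ in length, a difference in rank between libraries is not a change. The share of all regions whose ranks, or the authors' fold enrichments, stand apart by condition is not given, so cases named below are descriptions only. In such bulk libraries fewer cells with an open site and a less open site per cell cannot be told apart. Of 14 cushion mesenchyme markers 12 had a region in all 5 lists in the same kind of window, among them Sox9, Snai1, Snai2, Tbx20 and Msx1, while Twist1 and Postn had a peak in 4 lists. The share was 1 of 8 for endothelial markers, 1 of 8 for heart muscle, 2 of 6 for blood and 2 of 5 for epithelium. It was 5 of 8 for epicardium and mesothelium, among them Wt1 and Upk3b. Of all protein-coding genes 50.0% had such a region, and no test compared the marker groups. Myh6, Myh7, Nkx2-5, Gata1, Hbb-bs, Tcf21 and Epcam had no peak in any list.

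The windows held 61 regions, 7 at or just before a RefSeq start of their gene, 41 elsewhere in the gene body and 13 outside. Aldh1a2, Aldh1a3 and Cyp26b1 had few of them, at 1, 2 and 3. In all 5 lists were 10, or 16.4% against 25.1% of all regions. Of these 10, 5 lay at starts of Rarg, Rara, Rxrb and Aldh1a1, 3 inside Aldh1a1 and Rarg, and 2 outside Crabp2 and Rxrb. Another 28 of the 61 (45.9%) were in 1 list, against 39.7% of all regions, and 17 of those 28 were in NG 3 alone. Of the 10 genes 5 had a region in all 5 lists, namely Aldh1a1, Crabp2, Rara, Rarg and Rxrb, against 50.0% of all protein-coding genes, so the count lay at the background. By gene length it was 3 of 4 members up to 25 kb against 42.7% of such genes, 1 of 4 from 25 to 100 kb against 61.7%, and 1 of 2 above that against 59.9%. A peak in every list, not always in the same region, was found at 6 of the 10, against 53.3% of genes. Each of the 10 had a peak in at least 1 list, whereas 27.6% of protein-coding genes had none. Regions in all 5 lists are merged from more peaks and hold peaks strong enough to be listed each time, so their ranks and widths are given as a description. Their median percentile was 73.4, 70.6 and 63.6 in HG 1, 2 and 3, and 69.2 and 80.1 in NG 1 and 3. For member peaks in other regions the medians were 18.9, 38.4 and 34.1 in HG 1, 2 and 3, and 45.7 and 42.2 in NG 1 and 3. Median width was 285 bp for the regions in all 5 lists and 142 bp for the others.

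**Figure D1:**
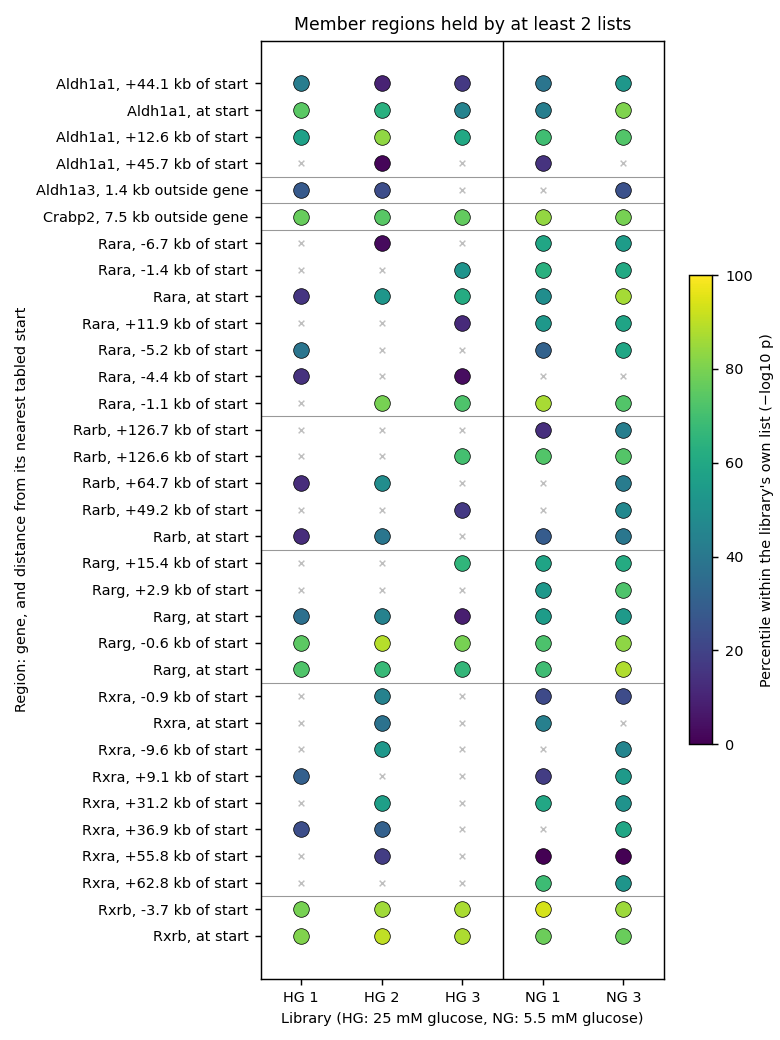
Every region of the 10 genes that at least 2 lists held, as rows, in the 3 high-glucose and the 2 normal-glucose libraries, as columns. A filled circle is a listed peak coloured by its percentile within that library's own list, a cross is no peak, and the full rows at Aldh1a1, Crabp2, Rarg, Rara and Rxrb are the 10 regions in all 5 lists.

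The retinaldehyde dehydrogenases differed from each other. Aldh1a1 had 3 regions in all 5 lists, while Aldh1a2 and Aldh1a3 had none. RefSeq tables a pair of starts for Aldh1a1, and these were not alike. The inner start, at 20601968 on chromosome 19, lay in a region at 20601769 to 20601997. Its peak stood at percentiles 74.4, 63.4 and 44.7 in HG 1, 2 and 3, and at 42.5 and 80.5 in NG 1 and 3. The ranks of the conditions overlapped, and NG 1 and NG 3 held the lowest and the highest. With the start as 0 and bases before it negative, summits lay at −64, −59 and −55 in HG 1, 2 and 3, and at −121 and −44 in NG 1 and 3. The outer start, at 20492583, had no peak in any list.

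The other shared regions of Aldh1a1 lay inside the gene. One, at 20614463 to 20614755, lay about 12.6 kb past the inner start, with percentiles 56.8, 83.2 and 59.9 in HG 1, 2 and 3, and 69.4 and 72.7 in NG 1 and 3. The normal-glucose ranks lay within the range of the high-glucose ones. The third, at 20536521 to 20536847, lay between the starts and over the annotated lncRNAs C730002L08Rik and E030003E18Rik, so that it cannot be given to Aldh1a1 alone. It was weak, at percentiles 42.0, 9.75 and 16.4 in HG 1, 2 and 3, and 38.9 and 52.8 in NG 1 and 3.

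Aldh1a2, on chromosome 9 from 71215789 to 71296243, had 1 peak in 1 list. That peak lay inside the gene at 71288860 to 71289042, at the 52.6 percentile of HG 1, and the start had no peak in any list. The nearest region that all 5 lists held was 272.905 kb away. Aldh1a3 had a region 1.416 kb outside the gene, between it and the neighbouring Lrrk1, in HG 1 and 2 and in NG 3, at percentiles 27.8 and 23.2 in HG and 25.0 in NG. A second, in NG 3 alone, lay inside the gene at the 12.9 percentile. The upstream sequences of the inner Aldh1a1 start and of the Aldh1a2 start show how unlike an open and an unlisted start could be. They and those that follow are the 250 bases before a start, from RefSeq on GRCm38.p6, 5′ to 3′ along the gene, with motif matches in capitals (here CCAAT, which 37.4% of all tabled starts hold on either strand).
Aldh1a1 start 2, chr19:20601718-20601967, plus strand: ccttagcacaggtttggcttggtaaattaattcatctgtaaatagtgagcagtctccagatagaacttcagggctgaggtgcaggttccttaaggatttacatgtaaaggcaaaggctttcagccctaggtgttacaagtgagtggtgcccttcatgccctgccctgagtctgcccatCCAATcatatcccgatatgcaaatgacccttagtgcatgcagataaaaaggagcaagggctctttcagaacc
Aldh1a2 start 1, chr9:71215539-71215788, plus strand: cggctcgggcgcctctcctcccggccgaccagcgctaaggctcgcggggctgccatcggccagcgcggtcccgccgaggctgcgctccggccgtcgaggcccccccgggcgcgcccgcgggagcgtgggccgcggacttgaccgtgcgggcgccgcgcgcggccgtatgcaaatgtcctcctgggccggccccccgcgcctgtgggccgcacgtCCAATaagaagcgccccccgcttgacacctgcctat

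Base composition did not follow openness within this pair. In the window from 250 bases before a start to 50 after it, the inner Aldh1a1 start had 47.0% GC and 1 CpG, and the Aldh1a2 start had 78.0% GC and 50 CpGs. Over all 32851 tabled starts the medians were 64.0% GC and 24 CpGs for the 7628 overlapped by a region in all 5 lists, and 48.7% and 4 for those with no peak. Of the 15 tabled starts of 8 members, 6 had a peak in all 5 lists, 2 in some and 7 in none, against 23.2% of all tabled starts in all 5 and 34.5% in at least 1. The windows of the Rara starts at 98937696 and 98937718 were reached by the same peaks, not all of which reached the starts themselves.

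Cyp26b1, which encodes an enzyme that degrades retinoic acid, had 3 regions, each in 1 list. They lay at the 14.2 percentile of HG 1, the 29.8 of NG 1 and the 62.9 of NG 3. HG 2 and HG 3 had no peak in its window. The start had none in any list. Its window held 3 matches to the GC box GGGCGG, the binding motif of Sp1-type factors, which 35.7% of all tabled starts hold, and 1 to TATAAA, which 13.6% hold. The nearest region in all 5 lists was 299.092 kb away.

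Crabp2, the carrier that hands retinoic acid to its receptors, had 1 region, and every list held it. It lay at chromosome 3, 87960864 to 87961140, 7.492 kb outside the gene's higher-coordinate end and over the lncRNA Gm32518. Its percentiles were 76.8, 73.9 and 76.1 in HG 1, 2 and 3, and 83.9 and 79.7 in NG 1 and 3. Both normal-glucose ranks lay above the 3 high-glucose ones, in lists of unequal length. The authors' fold enrichment was 9.27, 9.34 and 9.41 in HG 1, 2 and 3, and 10.4 and 10.7 in NG 1 and 3. With windows of 1 kb, or the gene body alone, Crabp2 had no region.

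The receptor genes held most of the regions. The 3 RAR genes had 32 and the 2 RXR genes 14 of the 61. Rarg was the most densely marked, with 8 regions at and around a gene of 22.585 kb. Its 3 regions in all 5 lists lay at both of its tabled starts and just before the inner one. At the outer start, 102257522 on chromosome 15, the region spanned 102257390 to 102257804. Its percentiles were 72.5, 67.2 and 66.2 in HG 1, 2 and 3, and 69.1 and 87.9 in NG 1 and 3. The conditions overlapped, with NG 3 highest.

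The inner Rarg start, at 102246500, had a weaker peak of its own. Its percentiles were 36.4, 44.1 and 8.36 in HG 1, 2 and 3, and 54.7 and 54.2 in NG 1 and 3. Both normal-glucose ranks lay above the high-glucose ones. In HG 3 the peak ran from 24 to 126 bases past the start and did not reach it. The third shared region, at 102246980 to 102247281, had its summit at −569, −696 and −673 from that start in HG 1, 2 and 3, and at −655 and −707 in NG 1 and 3. It was stronger in every list than the peak at the start, at percentiles 74.8, 88.8 and 79.6 in HG 1, 2 and 3, and 71.7 and 82.9 in NG 1 and 3. The sequences before these starts are given because they are unlike each other although both were open. The outer one holds 3 GC boxes, in capitals and in part overlapping, and the inner one none.
Rarg start 1, chr15:102257523-102257772, minus strand: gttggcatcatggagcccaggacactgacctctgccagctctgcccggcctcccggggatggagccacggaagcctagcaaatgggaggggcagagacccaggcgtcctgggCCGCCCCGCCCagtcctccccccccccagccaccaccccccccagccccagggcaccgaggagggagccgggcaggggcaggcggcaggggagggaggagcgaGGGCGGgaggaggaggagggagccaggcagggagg
Rarg start 2, chr15:102246501-102246750, minus strand: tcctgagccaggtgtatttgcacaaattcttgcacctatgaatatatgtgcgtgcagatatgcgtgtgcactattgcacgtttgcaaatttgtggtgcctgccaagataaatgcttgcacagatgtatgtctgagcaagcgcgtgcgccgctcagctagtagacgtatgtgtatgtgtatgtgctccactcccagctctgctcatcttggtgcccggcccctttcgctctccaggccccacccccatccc

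Rara, the most widely expressed RAR, had 12 regions and 1 in all 5 lists. That region, on chromosome 11 at 98937504 to 98937723, covered the closely spaced starts at 98937696 and 98937718, and it also lies in the overlapping gene model Gm46294. In HG 1 and 3 the peaks ended before both starts, at −12 and −41 from the first, and only the NG 3 peak reached the second. Percentiles of the region were 15.4, 52.6 and 61.1 in HG 1, 2 and 3, and 48.9 and 86.4 in NG 1 and 3. HG 1 was lowest and NG 3 highest, and the conditions overlapped. When peaks needed a −log10 q of 5, HG 1 lost this one. Summits lay at −104, −117 and −110 from the first start in HG 1, 2 and 3, and at −95 and −119 in NG 1 and 3, within a stretch that held 4 GC boxes and 1 CCAAT box, in capitals here on either strand.
Rara start 1, chr11:98937446-98937695, plus strand: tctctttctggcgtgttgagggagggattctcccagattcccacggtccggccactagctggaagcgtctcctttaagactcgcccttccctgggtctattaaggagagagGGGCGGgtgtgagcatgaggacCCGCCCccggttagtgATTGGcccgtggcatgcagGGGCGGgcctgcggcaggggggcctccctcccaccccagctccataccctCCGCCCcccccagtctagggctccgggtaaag

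The starts at 98939711 and 98964872 had no peak in any list. A strong region lay before the second of these, at 98963622 to 98963957, with summits about 1 kb upstream (−998 and −957 in HG 2 and 3, −1004 and −1003 in NG 1 and 3). It stood at percentiles 79.5 and 72.2 in HG 2 and 3, and 86.8 and 73.0 in NG 1 and 3, and HG 1 had no peak there. Of the other Rara regions 5 were in 1 list each.

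Rarb, which encodes the RAR most strongly induced by retinoic acid itself, spans 651.493 kb in RefSeq and had 12 regions, none in all 5 lists. Its tabled start, at 16575476 on chromosome 14, lay in a region at 16575452 to 16575717 that HG 1, HG 2, NG 1 and NG 3 held. The percentiles were 12.7 and 39.3 in HG 1 and 2, and 28.8 and 39.5 in NG 1 and 3, low in each list, and HG 3 had no peak. The start carries the known retinoic acid response element of this gene, a DR5, which is a direct repeat of 6-base half-sites spaced by 5 bases. The sequence is shown for that element, with the half-sites in capitals.
Rarb start 1, chr14:16575477-16575726, minus strand: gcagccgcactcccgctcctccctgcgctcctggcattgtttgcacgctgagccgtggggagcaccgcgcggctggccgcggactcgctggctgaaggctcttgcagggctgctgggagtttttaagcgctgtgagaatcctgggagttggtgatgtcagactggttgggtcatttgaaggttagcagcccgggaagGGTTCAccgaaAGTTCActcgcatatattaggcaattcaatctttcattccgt

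The DR5 lay at −53 to −37. The listed peaks covered it in 1 of the 4 libraries. In HG 1 the peak ran from −241 to −89 and in HG 2 from −235 to −132. In NG 1 it ran from −213 to −127 and in NG 3 from −220 to 24, over the element and the start. All 4 summits lay upstream of it, at −184 and −158 in HG 1 and 2, and at −161 and −157 in NG 1 and 3. Among all tabled starts a DR5 on either strand, with each half-site reading AGGTCA or one of its variants GGGTCA, with a first G, AGTTCA, with a T for its central G, and GGTTCA, with both, was found in 32, or 0.0974%, and in 0 of the 7628 open in all 5 lists. No member start held a repeat of the same half-sites spaced by 2 or 1 bases, which 0.268% and 0.222% of all starts did. A match is a run of letters and not a measured binding site.

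**Figure D2:**
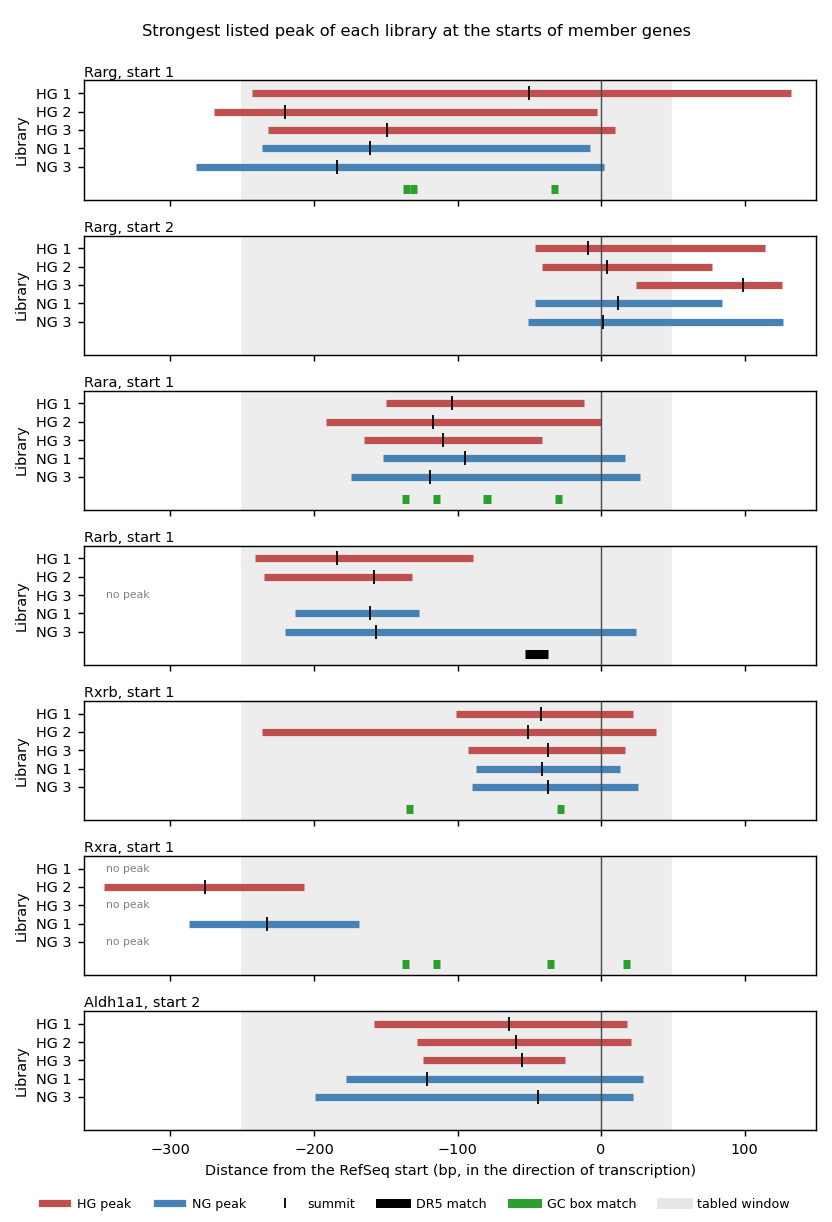
The strongest listed peak of each library at member starts, against distance from the RefSeq start in bp along the gene, with high-glucose libraries above normal-glucose ones. Bars are peaks, ticks are summits, black marks the DR5 and green the GC boxes, and the DR5 of Rarb lies under the NG 3 peak only.

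Inside Rarb, a region at 16448820 to 16448961 ranked higher than the start itself. It was held by HG 3 at the 70.1 percentile, and by NG 1 and NG 3 at 72.7 and 73.2. HG 1 and HG 2 had no peak there. Of the 12 regions 7 were in 1 list each.

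RXR partners every RAR, and its genes were unlike each other. Rxrb, 6.592 kb long in the histocompatibility region of chromosome 17, had the strongest start among the 8 members with a tabled start in HG 1, 2 and 3 and in NG 1. The region at 34031547 to 34031850 stood at percentiles 81.0, 90.4 and 87.7 in HG 1, 2 and 3, and at 77.4 and 77.1 in NG 1 and 3. The high-glucose ranks lay above the normal-glucose ones, in lists of unequal length. The authors' fold enrichment was 8.87, 12.4 and 11.0 in HG against 8.24 and 8.62 in NG. It describes the same peaks as the ranks and is not separate evidence. In NG 3 the starts of Rarg (87.9), Rara (86.4) and Aldh1a1 (80.5) ranked above the Rxrb start. Summits lay close together, at −42, −51 and −37 in HG 1, 2 and 3, and at −41 and −37 in NG 1 and 3. The merged region reaches the start of Slc39a7, a zinc transporter gene next to Rxrb that ends at 34031690, through the peak of HG 2, which began at 34031576, and a second, weaker peak of NG 3, which began at 34031547. The peaks of HG 1, HG 3 and NG 1 and the stronger one of NG 3 began at 34031711 or beyond and did not reach it. The strongest summits of all 5 lists lay between the Slc39a7 and Rxrb starts, at 34031761 to 34031775. The region therefore cannot be given to Rxrb alone. The sequence is shown because the summits fall between its GC boxes, in capitals, at −136 to −131 and −31 to −26.
Rxrb start 1, chr17:34031562-34031811, plus strand: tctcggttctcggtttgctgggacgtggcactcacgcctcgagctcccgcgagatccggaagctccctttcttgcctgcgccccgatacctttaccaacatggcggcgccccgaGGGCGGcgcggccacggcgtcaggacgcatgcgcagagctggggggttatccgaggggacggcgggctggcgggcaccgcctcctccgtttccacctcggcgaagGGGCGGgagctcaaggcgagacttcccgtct

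A second shared region in the Rxrb window, at 34027976 to 34028170, lay at the start of H2-Ke6 and stood at percentiles 79.4, 85.8 and 87.2 in HG 1, 2 and 3, and 93.4 and 85.4 in NG 1 and 3. It is counted for Rxrb only because the window reaches it, and with windows of 1 kb it was not. The inner Rxrb start, at 34032350, had no peak in any list, with 82.0% GC and 47 CpGs.

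Rxra, at 86.875 kb, had 10 regions and none in all 5 lists. HG 3 had no peak in its window, and HG 1 had 2, HG 2 had 6, NG 1 had 6 and NG 3 had 9. Peaks reached the window of its outer start, 27677201 on chromosome 2, in HG 2 at the 37.6 percentile and in NG 1 at the 43.2, and neither reached the start. That window had 83.0% GC and 55 CpGs, above the medians of open starts. The inner start, at 27709292, had no peak. Of the 10 regions 5 were in 3 lists each, in changing combinations, 3 were in 2 lists and 2 in 1.

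Set against the length of each list, peaks at these genes were fewer in every high-glucose than in either normal-glucose library. There were 22, 24 and 18 in HG 1, 2 and 3, and 30 and 49 in NG 1 and 3. Per 10000 listed peaks this came to 9.93, 9.60 and 7.97 in HG 1, 2 and 3, and 12.4 and 12.1 in NG 1 and 3, a mean of 9.17 ± 1.05 (SD, n = 3) against 12.3 ± 0.157 (SD, n = 2). The difference was −3.09 per 10000, and the groups did not overlap. How often sums over other sets of 10 genes stand apart was not examined. With 3 against 2 libraries a two-sided exact permutation test that doubles the smaller tail cannot give a p below 0.2, and no call is made. NG 1, whose list of 24255 peaks is shorter than the 25013 of HG 2, had the highest value. Leaving out 1 library at a time gave differences from −3.48 to −2.49.

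**Figure D3:**
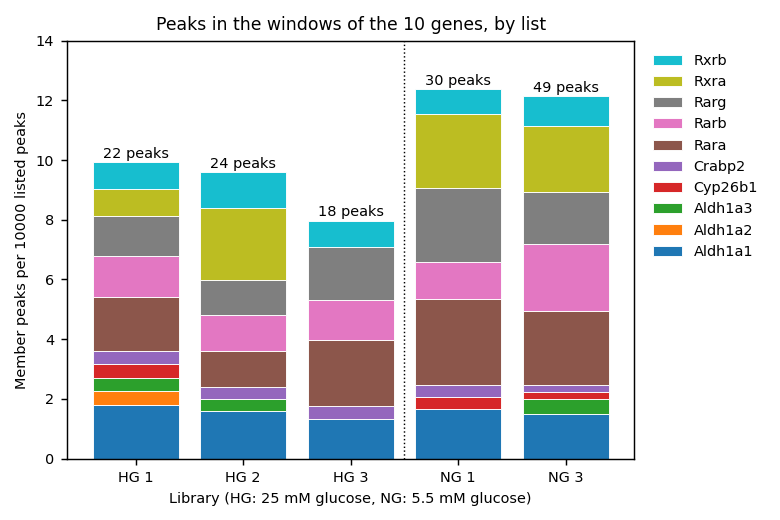
Peaks in the windows of the 10 genes per 10000 listed peaks, stacked by gene, in the 3 high-glucose and 2 normal-glucose libraries, with the number of peaks above each bar. The bars reach 9.93, 9.60 and 7.97 in high glucose and 12.4 and 12.1 in normal glucose.

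The receptor genes and the others were also summed apart, with no test between them. No share of other gene sets whose sums stand apart is set beside these values. For the 5 receptor genes peaks per 10000 were 6.32, 7.20 and 6.20 in HG 1, 2 and 3, and 9.89 and 9.67 in NG 1 and 3, without overlap. Within them the RAR genes had 4.51, 3.60 and 5.31 in HG 1, 2 and 3, and 6.60 and 6.44 in NG 1 and 3. The RXR genes had 1.81, 3.60 and 0.885 in HG 1, 2 and 3, and 3.30 and 3.22 in NG 1 and 3, so they overlapped, with HG 2 highest. For the other 5 genes the values were 3.61, 2.40 and 1.77 in HG 1, 2 and 3, and 2.47 and 2.48 in NG 1 and 3, and these overlapped. Taken gene by gene, Rara alone had groups that did not overlap, at 1.81, 1.20 and 2.21 in HG 1, 2 and 3, and 2.89 and 2.48 in NG 1 and 3. One of 10 genes in this direction compares with 4.89% of all protein-coding genes, and 0 of 10 in the other direction with 5.96%, so neither count stands clear of the background.

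None of the 61 regions was in all 3 HG lists and absent from NG, against 0.167% of all regions. In NG 1 and NG 3 but in none of the HG lists were 3, or 4.92%, against 3.73% of all regions. Presence in 2 lists, NG 3 the longest among them, is easier to meet than presence in 3, so these counts are not alike. Of the normal-glucose regions 1 lay inside Rarg at 102243524 to 102243758, past its inner start, at percentiles 53.4 and 71.9 in NG 1 and 3. Another lay 8.662 kb outside Rxra at 27771981 to 27772180, at percentiles 68.7 and 52.3. The third lay inside Rarb at 16448660 to 16448804, at 13.5 and 42.2, beside the region at 16448820 that HG 3 also held. With every list cut to its strongest 22149 peaks, and with a −log10 q of 5 required, the Rarg and Rxra regions were still in NG 1 and 3 only. The Rarb region was then in 1 list. A Rara region at 98930902 to 98931087 became specific to normal glucose in both settings, since its high-glucose peak, in HG 2, stood at the 2.57 percentile. A further Rara region, at 98951466 to 98951837, became so with the −log10 q of 5 only, where its HG 3 peak was lost. Such regions numbered 4 with that −log10 q and 3 with lists of equal length. The count of 3 rests on the libraries that enter. It was 5, 7 and 7 without HG 1, 2 and 3, and 20 and 6 without NG 1 and NG 3, and the high-glucose count was 1 without HG 2 and 0 without any other.

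The edge of the windows mattered for some genes. The outermost regions inside were those at Rxra, 8.662 kb out, and Crabp2, 7.492 kb out. Just outside, Rarg had a region 10.184 kb away in 3 lists, and Aldh1a3 had one 14.634 kb away in all 5. The nearest shared regions beyond the windows of Rara, Rxra and Rxrb lay 19.954, 22.547 and 31.236 kb away.

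The wider pathway was described with 40 other genes. Of these, 22 had a region in all 5 lists in their windows, against 50.0% of all protein-coding genes, and 5 had no peak in any list. In retinol uptake and storage the count was 1 of 6, Dgat1, an acyltransferase that also esterifies retinol, at percentiles 98.6, 99.7 and 95.6 in HG 1, 2 and 3, and 99.2 and 99.8 in NG 1 and 3. Lrat, the main retinol esterifying enzyme, had no peak, and Stra6, the receptor for the plasma carrier of retinol, had a peak in every list but no shared region. Rbp4, which carries retinol in plasma, had a peak in 1 list, and Bco1, which cleaves carotene, in 4.

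Of the enzymes that oxidise retinol or reduce retinal 7 of 11 had a shared region, beside the 50.0% of all protein-coding genes, and no test compared the groups of the list. They included Rdh10, the main retinol dehydrogenase of the mouse embryo, whose strongest shared region stood at percentiles 58.0, 75.9 and 84.5 in HG 1, 2 and 3, and 48.6 and 80.3 in NG 1 and 3. For Dhrs3, which turns retinal back into retinol, the percentiles were 71.9, 64.7 and 76.4 in HG 1, 2 and 3, and 66.4 and 91.7 in NG 1 and 3. Neither gene had groups that stood apart. Rdh11, Rdh13, Rdh14, Dhrs4 and Adh5 also had a shared region, while Dhrs9, Adh7 and Aldh8a1 had peaks in 5, 2 and 3 lists and Adh1 had none.

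Among 4 genes of clearance and carriage none had a shared region. Cyp26a1 had a peak in 1 list, Cyp26c1 and Crabp1 had none, and Fabp5, which carries retinoic acid to other nuclear receptors, had peaks in every list in differing places. Receptors and cofactors had 8 of 11. The corepressor Ncor1, which RARs recruit without ligand, had 2 shared regions. The coactivators Ncoa2, Ncoa3, Ep300 and Crebbp also had 1 or more, as did Nrip1 and Ppard. Ncoa1 had a peak in 4 lists, Zfp423 in 5 without a shared region, and Rxrg, the third RXR gene, in 1.

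Of 8 genes known to respond to retinoic acid 6 had a shared region, among them Nr2f1, Tgm2, Meis1, Meis2 and Stra8. At Nr2f1, an orphan nuclear receptor gene, it stood at percentiles 87.8, 82.3 and 78.7 in HG 1, 2 and 3, and 67.6 and 87.7 in NG 1 and 3, and the conditions overlapped. Hoxb1 had no peak in any list and Nr2f2 had peaks in 3. The windows can reach starts of neighbouring genes, so a shared region is not shown to belong to the gene named.

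**Figure D4:**
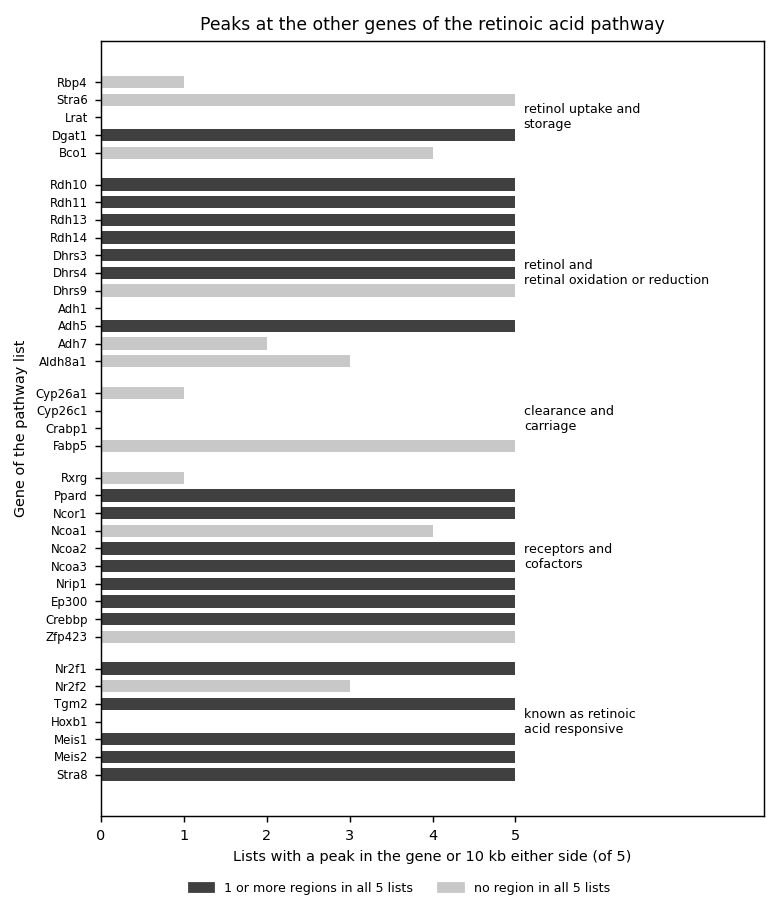
Number of the 5 lists with a peak in the gene or 10 kb either side, for 37 of the 40 other genes of the pathway in their groups. Dark bars are the 20 of these 37 with a region in all 5 lists, pale bars have none, and Lrat, Adh1, Cyp26c1, Crabp1 and Hoxb1 have no bar because no list held a peak.

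In the 40 windows 2 genes had a region that all 3 HG lists and neither NG list held, against 0.420% of all protein-coding genes. At Nrip1, a nuclear receptor corepressor, it lay on chromosome 16 at 76373368 to 76373520, at percentiles 4.84, 36.9 and 65.0 in HG 1, 2 and 3. At Meis1, a homeobox gene, it lay on chromosome 11 at 18892606 to 18892726, at percentiles 32.1, 48.8 and 37.4. A region held by NG 1 and NG 3 and by none of the HG lists occurred at 5 genes, among them Dhrs9, Ppard, Crebbp and Meis2, against 7.52%. With lists of equal length the regions of Nrip1 and Meis1 kept that status, and those of Dhrs9, Ppard, Crebbp and Meis2 did not.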

How the data were processed

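Libraries of 54000 cells were sequenced in 50 bp paired-end reads, per the labels. Per the submitters' processing notes, which give no roles or settings, reads were processed on mm10 with MACS2 2.1.0, Bowtie 1.0.0, cutadapt 1.0, Picard 1.90, DiffBind 1.12.3 and SAMtools 0.1.19. How transposase offset, duplicates and mitochondrial reads were handled was not stated there. For each peak the deposited lists, 1 per library, hold the authors' −log10 p-value and −log10 q-value, their fold over background (a ratio) and a score. The lowest −log10 q was 1.30.

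The members and lists were chosen with earlier results of these data known. Nuclear peaks overlapping by 1 bp were merged, and a region was counted for a gene when it touched the gene or 10 kb either side. Named genes were the 10 members, the 40 genes of the pathway list and neighbours in the windows. Of the 40, 3 count in the totals but are not reported here by name. Motifs were searched in the 32851 RefSeq windows of 250 bases before to 50 after a start, both strands, and 8 of the 10 members matched that table. Means were compared by two-sided exact permutation tests. Alternatives were a −log10 q of at least 5, the strongest 22149 peaks of each list, other windows, all 6 libraries, each library left out, merging within 200 bp, peaks covering 50% of a region, and same-numbered pairs. The region and window code was tested on simulated lists. Python 3.11.15, numpy 2.4.6 and pandas 2.3.3 were used.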

Additional observations from a re-analysis of the deposited data

How the results depend on the processing

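Counting all 6 libraries, the 52 nuclear peaks of NG 2 included, turned the difference in member peaks per 10000 to 0.994 and left 0 regions, 0 members, 0 pathway genes and 0 normal-glucose regions that met their rule, since NG 2 had no member peak. Windows of 50 kb gave 19 regions in all 5 lists. Normal-glucose regions numbered 5 when a library's peaks had to cover 50% of a region. With 1 library left out the difference ranged from −3.48 to −2.49, regions in all lists from 10 to 11, members with one from 5 to 6, pathway genes from 22 to 26, normal-glucose regions from 5 to 20 and high-glucose regions from 0 to 1. Pairing same-numbered libraries as a block gave −3.31 over 2 pairs. With 2 pairs the numbers are not shown to pair the libraries, and deviations from the group means correlated at −0.0140 and 0.0144. Of the 74 values recomputed for these 6 results, 61 kept their direction and stayed within 1.5 times the count reported. The cause of the other changes was not tested. Depth in reads is unknown, so an unlisted site is not shown to be closed.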
